A study of Mus musculus with 9 samples.

Results

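The mannose receptor gene Mrc1 and 9 genes of C-type lectin receptors (Clec10a, Cd209a, Cd209b, Clec7a, Clec4n, Clec4e, Clec4d, Clec4a2 and Clec12a) were followed across 9 RNA-seq libraries of mouse peritoneal macrophages. The 10 genes were taken by symbol from the 47729 gene identifiers of the count files, through the GENCODE mouse M21 annotation, and all 10 had enough reads to be tested. Each of 3 sorted populations gave 3 libraries: monocyte-derived, tissue-converted and tissue-resident macrophages. All mice had the genotype Cx3cr1CreERT2-IRES-EYFP/+ Rosa26-stopfl-tdTomato/+, in which Cre that needs tamoxifen is made with EYFP from the Cx3cr1 gene and switches on a tdTomato reporter. All mice, resident controls included, also received IL-4 complexes (5 µg IL-4 with 25 µg of its antibody) into the peritoneum every other day, starting 4 days before harvest. Monocyte-derived cells were harvested on day 4 after 2 ml thioglycollate, an irritant that recruits blood monocytes. Converted cells came from mice given 2 ml thioglycollate and then a tamoxifen diet over 10 weeks, and the labels name no group treatment for resident cells. The comparisons ask how far monocyte-derived macrophages resemble resident ones after time in the tissue. No library without IL-4 was analysed here, so the values do not measure a response to IL-4, and recent thioglycollate, time in the cavity and tamoxifen cannot be told apart in the groups. The sort gates and the ages of the mice were not given in the sources used here.

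C-type lectin receptors bind sugars and other ligands on microbes, dying cells and glycoproteins through a shared fold, the C-type lectin domain. Some, such as the mannose receptor, mainly take up their ligands. Others signal: activating members work through the kinase Syk, directly or through the adaptor chain Fcer1g, while inhibitory members carry a motif that recruits phosphatases. On macrophages the mannose receptor and Clec10a are widely used as markers of the alternative, IL-4-driven state.

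The mannose receptor gene Mrc1, the gene with the largest fall (Clec7a), Clec4e, Clec4d and Cd209a are shown here with the bases just upstream of their start sites, so that their promoters can be set side by side. Against monocyte-derived libraries, Clec4e and Clec4d rose in both tissue populations, and Cd209a was called higher in resident libraries alone. The sequences come from the RefSeq promoter table (GRCm38.p6), run 5′ to 3′ on the gene's strand and end before the first annotated exon. They are chr2:14229164-14229391 (+) for Mrc1, chr6:129472780-129473029 (-) for Clec7a, chr6:123289872-123290121 (-) for Clec4e, chr6:123261857-123262106 (+) for Clec4d and chr8:3748985-3749234 (-) for Cd209a. Capitals mark matches to the letters of 4 motifs, each searched on both strands: GAGGAA (PU.1, a factor that defines myeloid cells), TTC followed by GAA after any 4 bases (STAT6, the factor that IL-4 activates), TGANTCA (AP-1) and TTGCNNAA (C/EBP).
Mrc1: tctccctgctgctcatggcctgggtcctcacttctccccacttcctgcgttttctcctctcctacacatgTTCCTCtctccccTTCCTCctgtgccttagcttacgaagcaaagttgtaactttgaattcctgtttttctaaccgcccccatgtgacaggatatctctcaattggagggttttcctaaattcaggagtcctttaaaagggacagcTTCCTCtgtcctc
Clec7a: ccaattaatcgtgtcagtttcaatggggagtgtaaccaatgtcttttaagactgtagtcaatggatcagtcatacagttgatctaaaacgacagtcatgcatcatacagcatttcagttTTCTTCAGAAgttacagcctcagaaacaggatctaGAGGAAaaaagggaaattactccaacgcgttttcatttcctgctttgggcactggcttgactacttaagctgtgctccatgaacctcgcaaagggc
Clec4e: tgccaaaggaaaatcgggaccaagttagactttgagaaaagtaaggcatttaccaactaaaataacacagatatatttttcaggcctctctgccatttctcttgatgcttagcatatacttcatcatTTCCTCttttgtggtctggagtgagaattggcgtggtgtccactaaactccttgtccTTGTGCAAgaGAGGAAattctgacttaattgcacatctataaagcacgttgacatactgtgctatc
Clec4d: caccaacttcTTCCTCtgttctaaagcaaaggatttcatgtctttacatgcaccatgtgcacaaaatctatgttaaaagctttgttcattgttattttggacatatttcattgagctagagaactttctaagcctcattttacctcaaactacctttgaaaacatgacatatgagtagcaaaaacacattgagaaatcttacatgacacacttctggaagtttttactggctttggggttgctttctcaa
Cd209a: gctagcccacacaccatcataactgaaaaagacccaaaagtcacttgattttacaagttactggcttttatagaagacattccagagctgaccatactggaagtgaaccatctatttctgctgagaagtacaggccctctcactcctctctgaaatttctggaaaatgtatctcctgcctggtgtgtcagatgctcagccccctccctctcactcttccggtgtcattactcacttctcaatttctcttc

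Of the 10 genes, 8 had a window of 250 bases upstream of a start site in that table, and Clec10a and Clec4n had none. These 250 bases reach into annotated exons for Mrc1, Cd209b and Clec4a2, and the window of Clec12a begins within one, so its matches are not upstream of all exons. The PU.1 letters stood in the windows of 5 of the 8 genes (Mrc1 with 3 matches, Clec4e and Clec12a with 2 each, Clec7a and Clec4d with 1 each), against 23.3% of the 32851 windows of all genes. The C/EBP letters were found in 3 of 8 (Clec4e, Cd209b and Clec12a; 9.56% of all windows), the STAT6 letters in 1 of 8 (Clec7a; 5.85%) and the AP-1 letters in 1 of 8 (Clec12a; 6.75%). The window of Cd209a held none of the 4. PU.1 letters were thus present upstream of genes that fell (Mrc1, Clec7a) and of genes that rose (Clec4e, Clec4d). These matches describe the letters of the windows alone, since no binding was measured in these files.

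The libraries held 15220884 to 20496258 reads in genes. Of the 9 macrophage markers checked (Cd68, Csf1r, Lyz2, Itgam, Fcgr1, Mertk, Adgre1, Cd14 and Ptprc), every one had reads in each group, and they summed to 4155 to 6803 CPM (counts scaled to library size) in the monocyte-derived group, 6738 to 8349 in the converted and 7125 to 7440 in the resident group. Against the monocyte-derived group, 4 of the 9 were called higher and 2 lower in each tissue population. Fcgr1 averaged 15.9, 0.467 and 0.538 CPM in monocyte-derived, converted and resident libraries. In the same order, Lyz2 averaged 1837, 576 and 437 CPM and Adgre1, the largest part of the sum in both tissue populations, 343, 3077 and 2978. Markers of other cells differed between the groups, and the B-cell list moved most, from 56.2 to 113 CPM in the monocyte-derived group to 164 to 307 in the converted and 1621 to 2103 in the resident group. In the comparison of converted with resident libraries 15 of the 18 B-cell markers were lower, led by Ighm (42.1 against 545 CPM). The dendritic cell list summed to 588 to 783, 248 to 289 and 476 to 505 CPM, and the T and NK cell list to 21.3 to 117, 3.94 to 7.88 and 33.0 to 55.8, in monocyte-derived, converted and resident libraries. The neutrophil list summed to 58.0 to 101 CPM in monocyte-derived libraries and to at most 20.6 in the others, and the eosinophil and mast cell list (with no read of Epx or Prg2 in any group) and the mesothelial and fibroblast list stayed at or under 25.4 and 11.6 CPM. The part of these cells in the lectin values was not tested, and marker values given beside a result are not a test of it. Monocyte-derived libraries also differed from the others in sex-linked RNA, with Xist at 41.1 to 101 CPM and no read of Ddx3y, while converted and resident libraries together had 2 reads of Xist and at least 84.6 CPM of Ddx3y. Sex and origin of the cells cannot be told apart in any comparison with the monocyte-derived group.

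The 10 lectin genes divided the populations mainly into monocyte-derived cells on one side and both tissue populations on the other. In converted against monocyte-derived libraries 3 genes rose, 6 fell and 1 did not pass the test (edgeR's quasi-likelihood test, adjusted p under 0.05), against a background of 50.7% of the 13223 genes tested (25.8% higher and 24.9% lower). In resident against monocyte-derived libraries 4 rose and 6 fell, where the background was also 50.7% (25.7% higher and 24.9% lower). In converted against resident libraries 1 gene fell and 9 did not pass, against a background of 6.07% (1.82% higher and 4.26% lower). The median log2 fold change of the 10 genes was -1.40, -1.88 and -0.48 in these comparisons, beside -0.01, 0.00 and 0.01 over all genes tested. Both comparisons with the monocyte-derived group share its 3 libraries, so their directions are not independent of each other. The reads of the 10 genes together came to 2038 ± 31.5 CPM (SD, n = 3) in the monocyte-derived, 502 ± 62.5 in the converted and 650 ± 29.0 in the resident group, with no overlap between any of the groups. Most of the monocyte-derived sum came from Mrc1 (41.9% to 46.3%) and Clec7a (29.8% to 31.3%). In the tissue populations Mrc1 made up at most 12.8% and Clec7a at most 2.08% of the sum, so its fall is mainly that of this pair. In this bulk RNA, fewer cells that express a gene and less of its RNA per cell cannot be told apart.

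**Figure D1:**
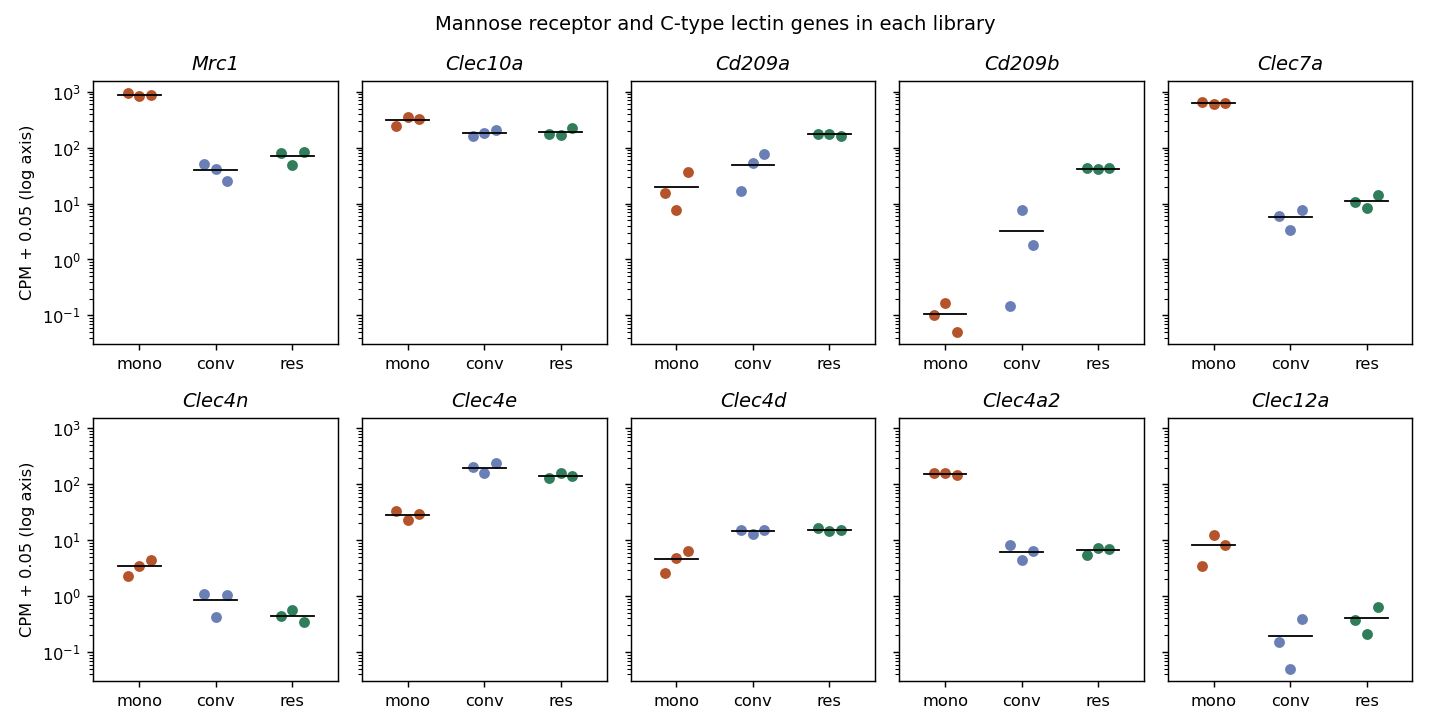
Level of each of the 10 lectin genes in every library (points, CPM + 0.05 on a log axis) with the group mean as a line, for monocyte-derived (mono), converted (conv) and resident (res) macrophages, 3 libraries each. Mrc1, Clec7a, Clec4a2 and Clec12a were high in the monocyte-derived libraries, Clec4e and Clec4d were low there, and Cd209a and Cd209b were highest in the resident libraries.

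Among the receptors for sugar uptake, Mrc1 fell most. Mrc1 (ENSMUSG00000026712, chromosome 2, 14229392 to 14332057, plus strand, GRCm38) encodes the mannose receptor CD206, which takes up glycoproteins ending in mannose, fucose or N-acetylglucosamine. It stood at 948, 839 and 870 CPM in monocyte-derived libraries 1 to 3, at 50.9, 41.4 and 25.0 in converted and at 81.6, 48.4 and 83.9 in resident ones. Every monocyte-derived library was thus above every other library, while converted and resident libraries overlapped. The fall was 22.6-fold in converted (log2 fold change -4.50 ± 0.30 SE, adjusted p = 2.41e-06) and 12.4-fold in resident libraries (log2 fold change -3.63 ± 0.28, adjusted p = 7.32e-06). Converted against resident, the log2 difference of Mrc1 was -0.86 ± 0.26 with an adjusted p of 0.0936 and a 95% interval from -1.46 to -0.27. DESeq2 called this difference, with an adjusted p of 0.0148. The annotation places the microRNA gene Mir511 inside Mrc1 on the same strand.

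Clec10a (ENSMUSG00000000318, chromosome 11, 70156197 to 70170834, plus strand) encodes the galactose-type lectin CD301a and changed least of the genes that fell. Its levels were 243, 355 and 327 CPM in monocyte-derived, 164, 184 and 204 in converted and 176, 171 and 220 in resident libraries. The lowest monocyte-derived library was above the highest of both other groups by a small margin. The log2 fold change was -0.75 ± 0.15 in converted (adjusted p = 0.00251) and -0.71 ± 0.15 in resident libraries (adjusted p = 0.00346), or 40.4% and 38.8% less. Converted and resident libraries differed by a log2 value of -0.04 ± 0.15 (adjusted p = 0.918), with a 95% interval from -0.38 to 0.30. Side by side, these markers of alternative activation fell 22.6-fold (Mrc1) and 1.68-fold (Clec10a) in converted libraries, in mice that had all received IL-4.

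Cd209a and Cd209b, uptake receptors that are mouse relatives of human DC-SIGN, were highest in the resident libraries. Cd209a (ENSMUSG00000031494, chromosome 8, 3743397 to 3748984, minus strand) had 15.7, 7.63 and 36.9 CPM in monocyte-derived, 16.8, 52.7 and 76.1 in converted and 178, 177 and 160 in resident libraries. The resident libraries lay close together and above all others, and converted library 1 fell inside the monocyte-derived range. Cd209a was 8.61-fold higher in resident than in monocyte-derived libraries (log2 fold change 3.11 ± 0.61, adjusted p = 0.00218), and the log2 fold change was 3.88 without monocyte-derived library 3. Converted libraries were not called against either group: the log2 difference was 1.28 ± 0.58 from monocyte-derived (adjusted p = 0.0955, 95% interval -0.03 to 2.59) and -1.83 ± 0.57 from resident libraries (adjusted p = 0.101, 95% interval -3.11 to -0.54). The first was called when monocyte-derived library 3 (log2 fold change 2.05, adjusted p = 0.0176) or converted library 1 (1.70, adjusted p = 0.0226) was left out, and the second with limma-voom (-2.095, adjusted p = 0.0313).

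Cd209b (ENSMUSG00000065987, chromosome 8, 3917655 to 3926844, minus strand) encodes SIGN-R1, a receptor for bacterial capsular sugars best known on marginal zone macrophages of the spleen. It was close to absent from monocyte-derived libraries, with 1, 2 and 0 reads. Converted libraries had 2, 146 and 32 reads (0.0997, 7.67 and 1.80 CPM), so converted library 1 was as low as the monocyte-derived ones and the groups overlapped. Resident libraries stood at 43.0, 40.8 and 42.7 CPM, with no overlap with any other library. From summed reads, the ratio to monocyte-derived libraries was 724 (95% counting interval 247 to 3511) in resident and 54.3 (18.3 to 266) in converted libraries, intervals that cover counting error only. Cd209b was called in all 3 comparisons, with adjusted p-values of 0.0134 (converted against monocyte-derived), 0.000248 (resident against monocyte-derived) and 0.0219 (converted against resident, log2 fold change -3.72 ± 0.76, 13.2-fold lower). Both calls of the converted group were lost in some settings. The call against monocyte-derived libraries was lost without monocyte-derived library 1 (adjusted p = 0.0785), with limma-voom (log2 fold change 4.01, adjusted p = 0.114) and without a filter on low counts (0.083), and the fitted log2 fold change went from 5.62 to 3.83 without converted library 2, to 6.20 without converted library 1 and to 6.48 without monocyte-derived library 2. The call against resident libraries was lost without converted library 3 (adjusted p = 0.0897) or without resident library 1, 2 or 3 (0.0836, 0.0643 and 0.0831), and it kept its direction in each. The log2 fold change there was -3.45, -3.71, -3.75 and -3.71, beside -3.72 with all libraries. These fits also called fewer of all genes tested, 354, 295, 400 and 245 against 803. The call of Cd209b was also lost without a filter on low counts (0.121), while without converted library 2 it was made at a log2 fold change of -5.51.

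**Figure D2:**
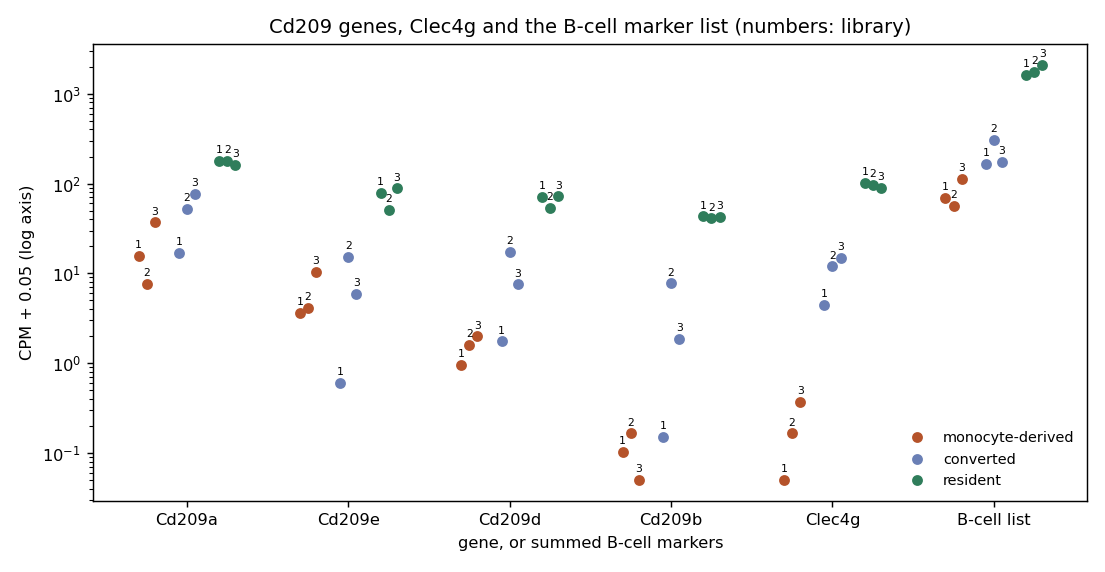
Levels of the 4 Cd209 genes of the locus, of Clec4g and of the summed B-cell marker list in each library (points, CPM + 0.05 on a log axis, the number beside a point is the library within its group). All 5 genes and the B-cell list were highest in the 3 resident libraries, and converted library 1 was the lowest of its group for each of the 6.

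Cd209a and Cd209b lie at the ends of a stretch of 183.4 kb on chromosome 8 that also holds Cd209e and Cd209d, and these neighbours were also highest in resident libraries. Cd209d averaged 1.47, 8.87 and 65.2 CPM and Cd209e 6.02, 7.16 and 72.5 CPM in monocyte-derived, converted and resident libraries. For Cd209e the step from monocyte-derived to converted libraries was not called (log2 difference 0.26 ± 0.79, adjusted p = 0.805) and had the opposite sign with limma-voom (-0.54) and without converted library 2 (-0.92). Cd209d and Cd209e were lower in converted than in resident libraries, Cd209d by a log2 value of -2.88 ± 0.58 (adjusted p = 0.0214) and Cd209e by -3.34 ± 0.77 (adjusted p = 0.0356), and both calls were lost on leaving out converted library 3 or any single resident library (adjusted p from 0.0518 to 0.131). In those fits the values ran from -3.00 to -2.77 for Cd209d and from -3.54 to -3.18 for Cd209e, and fewer of all genes were called. Another family member, Cd209c, named after its values were seen, did not share this order. It averaged 1.46, 0.302 and 2.03 CPM, fell in converted libraries (log2 fold change -2.26 ± 0.43, adjusted p = 0.00157) and was not called in resident ones (adjusted p = 0.294). Beside the values of the locus, the B-cell marker list was higher in converted than in monocyte-derived libraries and highest in resident ones, and the 3 resident libraries were the highest for each of the 4 Cd209 genes of the locus and for the list. Among the converted libraries, library 2 had the most B-cell marker RNA (307 CPM) and also the most Cd209b, Cd209d and Cd209e, while Cd209a was highest in library 3. Converted libraries 1 and 3 had 164 and 176 CPM of the list, with Cd209b at 0.0997 and 1.80 CPM. Within the resident group the list was highest in library 3 (2103 CPM), as were Cd209d and Cd209e. Cd209a and Cd209b were highest in resident library 1, where the list was lowest (1621 CPM). The part of B cells or other cells in the Cd209 values was not tested. The Cd209 genes are close copies of each other, and how reads with several alignments were handled is not given in the sources used here, so reads may have been exchanged among them.

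Of the activating receptors, the ones for beta-glucan and mannan fell and the Mincle pair rose. Clec7a (ENSMUSG00000079293, chromosome 6, 129461591 to 129472779, minus strand) encodes Dectin-1, which binds the beta-glucan of fungal walls and signals through Syk by its own tail. It had 642, 597 and 633 CPM in monocyte-derived libraries but 5.93, 3.36 and 7.48 in converted and 10.6, 8.18 and 14.2 in resident ones. No converted or resident library reached a level near the monocyte-derived range, and every converted library was below every resident one. The fall was 112-fold in converted (log2 fold change -6.80 ± 0.30, adjusted p = 2.05e-07) and 56.6-fold in resident libraries (-5.82 ± 0.28, adjusted p = 4.03e-07). The converted to resident difference, -0.98 ± 0.27, was not called (adjusted p = 0.0655, 95% interval -1.58 to -0.38), but was called by DESeq2 (adjusted p = 0.00395). The M21 annotation classes Clec7a as a polymorphic pseudogene, and its reads were counted like those of any other gene.

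Clec4n (ENSMUSG00000023349, chromosome 6, 123229843 to 123247021, plus strand) encodes Dectin-2, a mannan receptor that signals through Fcer1g. It was low throughout, with 2.29, 3.35 and 4.47 CPM in monocyte-derived, 1.05, 0.368 and 1.01 in converted and 0.385, 0.524 and 0.294 in resident libraries. The monocyte-derived libraries did not overlap with the others, while converted and resident libraries did overlap. The fall was 4.13-fold in converted (log2 fold change -2.05 ± 0.42, adjusted p = 0.00242) and 8.28-fold in resident libraries (-3.05 ± 0.46, adjusted p = 0.00036). With 46 reads over the converted and 23 over the resident libraries, the log2 difference between them was 1.004 ± 0.49 (adjusted p = 0.286, 95% interval -0.09 to 2.1).

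Clec4e (ENSMUSG00000030142, chromosome 6, 123281789 to 123289870, minus strand) encodes Mincle, which binds mycobacterial cord factor and signals through Fcer1g. Opposite to Clec7a, it was low in monocyte-derived libraries, with 32.7, 22.9 and 29.7 CPM, and high in converted (201, 162 and 237) and resident ones (128, 160 and 139). The lowest converted library was just above the highest resident one. Clec4e rose 7.03-fold in converted (log2 fold change 2.81 ± 0.17, adjusted p = 1.16e-06) and 5.02-fold in resident libraries (2.33 ± 0.17, adjusted p = 3.88e-06). Converted against resident, it was 40.1% higher without passing the test (log2 difference 0.49 ± 0.16, adjusted p = 0.116, 95% interval 0.13 to 0.85).

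Clec4d (ENSMUSG00000030144, chromosome 6, 123262111 to 123275265, plus strand) encodes MCL, the partner with which Mincle forms a complex. Its levels were 2.56, 4.86 and 6.28 CPM in monocyte-derived, 15.5, 12.7 and 15.2 in converted and 16.4, 14.6 and 15.03 in resident libraries. Both tissue populations lay above the monocyte-derived libraries and overlapped with each other. Clec4d rose 3.18-fold in converted (log2 fold change 1.67 ± 0.26, adjusted p = 0.000486) and 3.38-fold in resident libraries (1.76 ± 0.26, adjusted p = 0.000356). The converted to resident difference was -0.09 ± 0.24 on the log2 scale (adjusted p = 0.878), with a 95% interval from -0.63 to 0.46.

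Both inhibitory receptors fell in the tissue populations. Clec4a2 (ENSMUSG00000030148, chromosome 6, 123106428 to 123143999, plus strand) encodes the inhibitory receptor DCIR of myeloid cells. It had 159, 160 and 146 CPM in monocyte-derived, 8.02, 4.36 and 6.30 in converted and 5.39, 7.34 and 6.95 in resident libraries. The monocyte-derived libraries were far above the rest, and the other groups overlapped. The fall was 24.8-fold in converted (log2 fold change -4.63 ± 0.20, adjusted p = 1.13e-07) and 23.5-fold in resident libraries (-4.56 ± 0.20, adjusted p = 1.51e-07), and the log2 difference between those groups was -0.07 ± 0.20 (adjusted p = 0.875, 95% interval -0.52 to 0.37). A processed pseudogene, Gm44132, lies inside Clec4a2 and held 5 reads over all libraries.

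Clec12a (ENSMUSG00000053063, chromosome 6, 129342691 to 129365303, plus strand) encodes an inhibitory receptor that senses uric acid crystals. It was read in monocyte-derived libraries at 3.47, 12.5 and 8.16 CPM, in converted at 0.0997, 0 and 0.338 and in resident ones at 0.330, 0.157 and 0.587. These levels rest on 407 reads over the monocyte-derived, 8 over the converted and 21 over the resident libraries. The fall was 54.2-fold by the fit in converted (log2 fold change -5.76 ± 0.77, adjusted p = 0.00019) and 21.8-fold in resident libraries (-4.44 ± 0.67, adjusted p = 0.000421). Without converted library 3 the first became -7.11 (adjusted p = 0.000522). Converted and resident libraries overlapped, and their log2 difference of -1.32 ± 1.001 had a 95% interval from -3.56 to 0.92 (adjusted p = 0.507) and was -2.67 (adjusted p = 0.33) without converted library 3, so a difference of several fold was not detectable at this depth.

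**Figure D3:**
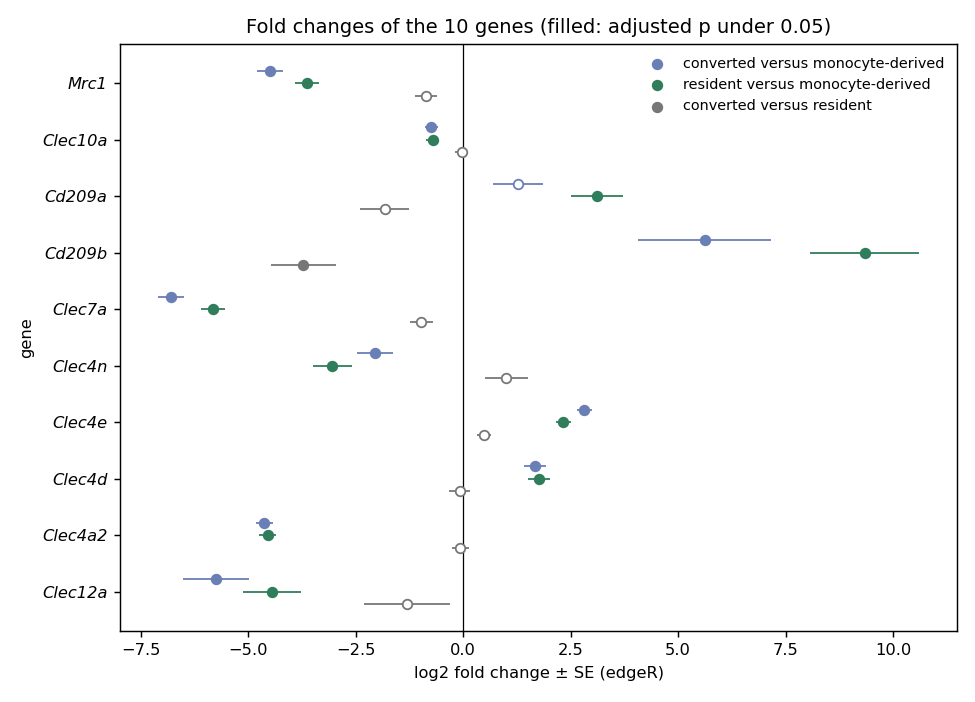
Log2 fold change of each lectin gene in the 3 comparisons (points, with SE as bars, from edgeR), filled where the adjusted p was under 0.05. The points for converted and resident against monocyte-derived libraries lie on the same side of 0 for each gene and share the monocyte-derived libraries, and of the points for converted against resident libraries the one of Cd209b is filled.

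In the converted to resident comparison, 5 of the 10 genes had an unadjusted p under 0.05, against a background of 20.8% of all genes tested, and 1 passed the adjusted test, and the libraries of both groups did not overlap for 4 genes (Cd209a, Cd209b, Clec7a and Clec4e), against a background of 37.3% of all genes tested. DESeq2 called 3 of the 10 (Mrc1, Cd209b and Clec7a), limma-voom 2 (Cd209a and Cd209b), and edgeR without a filter on low counts none. Of all genes tested, these settings called 10.3%, 6.57% and 3.31%. Against the monocyte-derived group, 8 genes in converted and 10 in resident libraries had no overlap, where the backgrounds were 56.3% and 59.5%.

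Per length of exon, which allows levels of different genes to be compared, the order of the 10 lectins differed between the populations. In monocyte-derived libraries Clec7a led with 237 ± 9.06 CPM per kb of exon (SD, n = 3), followed by Mrc1 with 139 ± 8.88, Clec10a with 106 ± 20.1 and Clec4a2 with 52.9 ± 2.69, and none of these neighbours overlapped. In converted libraries Clec10a led with 63.4 ± 6.88, followed by Clec4e with 40.2 ± 7.52 and Cd209a with 30.7 ± 18.9, which overlapped with Clec4e. In resident libraries Cd209a led with 109 ± 6.38, followed by Clec10a with 65.1 ± 9.39, Clec4e with 28.7 ± 3.23 and Cd209b with 19.9 ± 0.556, again without overlap between neighbours. Mrc1 was 5th per length in both tissue populations, at 6.14 ± 2.06 in converted and 11.2 ± 3.12 in resident libraries, and overlapped there with Clec4d. At the low end, Clec4n and Clec12a were last in both tissue populations, and Cd209b was last in the monocyte-derived one. Clec10a was the single gene among the first 3 in every population.

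**Figure D4:**
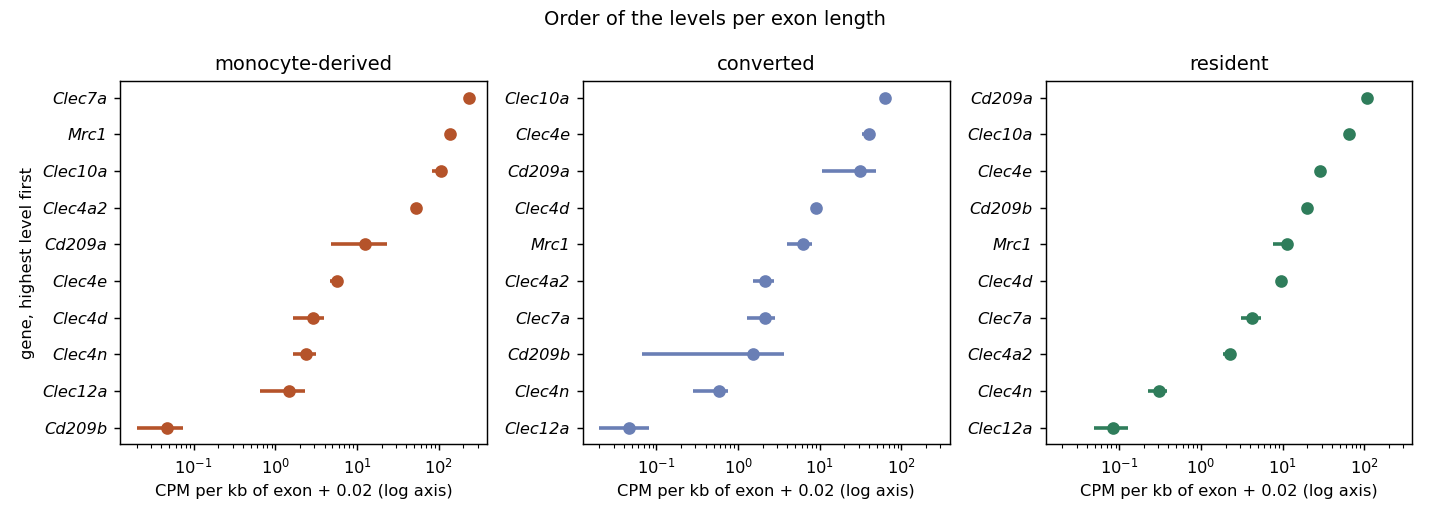
Levels of the 10 lectin genes per kb of exon (mean as point, lowest to highest library as bar, CPM per kb of exon + 0.02 on a log axis), ordered from high to low within each population. Clec7a and Mrc1 lead in monocyte-derived libraries, Clec10a in converted and Cd209a in resident ones.

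Of the 10 genes, 6 lie on chromosome 6 in a pair of lectin clusters. In the first of these the members moved in both directions, and in the second both members fell. The Clec4 stretch of 183.4 kb runs from Clec4a2 through Clec4n and Clec4d to Clec4e. At its ends, Clec4a2 fell and Clec4e rose in both tissue populations, and of the genes between them Clec4n fell while Clec4d rose. Between Clec4a2 and Clec4n the annotation has Clec4b2, with 2 reads over all libraries. The second stretch, of 130.1 kb, has Clec12a and Clec7a at its ends, both of which fell. Of the genes between them, Clec1b, the platelet-type receptor CLEC-2, was higher in converted (log2 fold change 2.84 ± 0.71, adjusted p = 0.00774) and resident libraries (2.31 ± 0.75, adjusted p = 0.026) from 4 reads over the monocyte-derived libraries. Without monocyte-derived library 1 these became 2.23 and 1.70, and the resident call was lost there (adjusted p = 0.071) and without resident library 1 (0.0561) or 3 (0.114). The others, Clec12b, Clec9a and Clec1a, had at most 18 reads in any group and were not tested.

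Genes whose pattern was most like that of Mrc1 were sought among all tested genes by the root mean square difference of centred log2 CPM over the 9 libraries. A prior count of 2 was added before taking logs, which damps differences at low counts. The 5 closest were Osbpl3 (0.34), Msx3 (0.36), Bcl2a1d (0.39), Car5b (0.39) and Gpr85 (0.40). Msx3 stood at 255 ± 81.6 CPM in the monocyte-derived, 8.99 ± 0.714 in the converted and 13.3 ± 4.06 in the resident group (SD, n = 3), and Car5b, a mitochondrial carbonic anhydrase, at 71.9 ± 21.3, 3.90 ± 0.487 and 5.26 ± 1.04. Among the lectins, Clec4a2 was nearest to Mrc1 with a difference of 0.57 and Clec12a next with 0.88, while Clec10a, at 1.69, was farther than Clec7a (1.15) and Clec4n (1.24). Over the converted libraries Osbpl3 had 7 reads, Clec12a 8 and Gpr85 20, so their differences from Mrc1 depend in part on the added count.

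Of 59 other genes with a C-type lectin domain, 35 had enough reads to be tested. Of these, 9 rose and 15 fell in converted, and 12 rose and 10 fell in resident libraries against the monocyte-derived group, beside the backgrounds of 50.7% in each. Their median log2 fold change was -0.44 and 0.06. Among those that fell in converted libraries were Klrb1a, Klrb1c, Klrb1f, Klrd1 and Klrk1, with means of 0.679 to 3.25 CPM in monocyte-derived libraries. Klrb1c is also in the T and NK cell list, which was lower in converted libraries, and the part of those cells was not tested. The nearest relative of Clec10a, Mgl2 (CD301b), fell like it by a small amount, from 4259 CPM in monocyte-derived to 2918 in converted (log2 fold change -0.55 ± 0.10, adjusted p = 0.00162) and 3317 in resident libraries (-0.36 ± 0.10, adjusted p = 0.0155). The resident call of Mgl2 was lost without monocyte-derived library 3 (adjusted p = 0.0525) or resident library 1 (0.0628) or 2 (0.0742). Clec4b1, an activating relative of Clec4a2 that signals through Fcer1g, fell from 101 to 2.57 CPM in converted (log2 fold change -5.30 ± 0.28, adjusted p = 4.62e-07) and 2.86 CPM in resident libraries (-5.14 ± 0.28, adjusted p = 5.7e-07). Clec4a1 had 143.8, 121 and 135 CPM in monocyte-derived and 98.1 to 121 in converted libraries, a log2 fold change of -0.28 ± 0.10 (adjusted p = 0.039), and Clec4a3 one of -0.31 ± 0.12 (adjusted p = 0.0437), while in resident libraries neither passed the test (adjusted p = 0.401 and 0.0714). The converted calls of Clec4a1 and Clec4a3 were each lost in 7 of the 9 fits that left out a library, with adjusted p up to 0.149 in both, and in 3 (Clec4a1) and 4 (Clec4a3) of the 10 other settings. Clec4a3 was called in resident libraries without monocyte-derived library 1 (0.0123) or on library totals (0.0385). Their values stand beside the log2 fold change of -4.63 of Clec4a2 in the same libraries.

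The Tyrobp-coupled receptor Clec5a fell from 35.7 to 3.08 CPM in converted (log2 fold change -3.55 ± 0.36, adjusted p = 3.83e-05) and 1.02 CPM in resident libraries (-5.12 ± 0.41, adjusted p = 7.65e-06), and without converted library 3 the first was -4.17. Olr1, a receptor for oxidised lipoprotein, fell with log2 fold changes of -3.12 ± 0.50 (adjusted p = 0.000632; -3.88 without converted library 3) and -3.65 ± 0.51 (adjusted p = 0.00031), and Asgr2, a subunit of the asialoglycoprotein receptor, with -3.82 ± 0.32 (adjusted p = 8.46e-06) and -3.59 ± 0.32 (adjusted p = 1.1e-05). Of the genes that rose, Selp (P-selectin) went from 30.5 CPM to 339 in converted and 328 in resident libraries (log2 fold change 3.48 ± 0.12, adjusted p = 3.12e-08, and 3.43 ± 0.11, adjusted p = 3.06e-08). Clec4g, a receptor known from liver sinusoids, had 0, 2 and 5 reads in monocyte-derived libraries, 4.44, 11.9 and 14.7 CPM in converted and 102, 95.8 and 88.8 CPM in resident ones. These groups did not overlap, the rises were called (adjusted p = 7.14e-05 and 2.81e-06), and the fitted log2 fold changes of 6.17 and 9.38 became 7.37 and 10.58 without monocyte-derived library 3 and 5.54 and 8.75 without library 1. Clec2l and Colec12, a scavenger receptor with a lectin domain, rose in both tissue populations, Clec2l with log2 fold changes of 2.03 ± 0.24 (adjusted p = 8.78e-05) and 2.41 ± 0.24 (adjusted p = 2.85e-05) and Colec12 with 1.52 ± 0.42 (adjusted p = 0.0133; 0.0548 without converted library 1) and 1.56 ± 0.42 (adjusted p = 0.0117).

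Converted against resident, 8 of the 35 other lectin genes were lower and none higher, against a background of 4.26% of tested genes called lower. Among genes with at least 5 CPM in the higher group, the largest of these differences were those of Cd209e and Cd209d given above, of Clec4g (log2 fold change -3.21 ± 0.37, adjusted p = 0.0025) and of Cd69 (-2.51 ± 0.26, adjusted p = 0.00107), an activation antigen of lymphocytes, and below that level Cd209c differed by -2.73 ± 0.42 (adjusted p = 0.00631). Fcer2a, the low-affinity IgE receptor known from B cells, was among them (-2.17 ± 0.36, adjusted p = 0.00824; 0.0615 without resident library 3), with 2.31 to 3.52 CPM in converted and 11.3 to 16.6 in resident libraries. Clec5a was not called, though every converted library (1.55 to 5.29 CPM) was above every resident one (0.880 to 1.17). DESeq2 called Clec5a higher (log2 fold change 1.59, adjusted p = 0.00262), as did the 2-group fit (0.0472). It was also called without monocyte-derived library 1 (0.0441) or converted library 1 (0.0326), but not without converted library 3 (0.95, adjusted p = 0.125). The count of 8 was 5 without converted library 3, 4 without resident library 1 and 3 without resident library 3. Of all genes tested, 2.59%, 2.16% and 1.81% were called in these fits, against 6.07% with all libraries. B-cell and T and NK cell marker lists were lower in converted libraries as well, and their part in these calls was not tested.

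Of 40 genes that carry the signal of these receptors, 39 were tested. In converted against monocyte-derived libraries 3 rose and 16 fell, and in resident ones 6 rose and 15 fell, with medians of -0.18 and -0.13, again beside backgrounds of 50.7%. The shared adaptor chain of Clec4n, Clec4e and Clec4d, Fcer1g, fell from 751 CPM to 315 in converted (log2 fold change -1.25 ± 0.10, adjusted p = 4.23e-06) and 338 in resident libraries (-1.15 ± 0.10, adjusted p = 7.32e-06). Clec4e and Clec4d, which need it, rose in the same libraries. Syk, the kinase downstream of Clec7a and Fcer1g, had 224, 210 and 257 CPM in monocyte-derived, converted and resident libraries and was not called in either comparison (adjusted p = 0.51 and 0.167), and neither were the adaptors Tyrobp (585, 565 and 613 CPM; adjusted p = 0.816 and 0.756) and Card9 (14.2, 15.9 and 17.0 CPM; adjusted p = 0.416 and 0.189). Without monocyte-derived library 1, Syk was called lower in converted (adjusted p = 0.0491) and Card9 higher in resident libraries (0.0369). Without monocyte-derived library 2, Syk was called higher in resident libraries (0.0256). Converted against resident, Syk was called lower in the 2-group fit (0.0141) and without monocyte-derived library 1 (0.0289). Further down the Card9 route, Malt1, its protease partner, fell with log2 fold changes of -1.76 ± 0.14 (adjusted p = 5.63e-06) and -1.47 ± 0.14 (adjusted p = 1.79e-05). Prkcd, the kinase that activates Card9, fell with -1.58 ± 0.10 (adjusted p = 1.44e-06) and -1.46 ± 0.10 (adjusted p = 2.69e-06). The phospholipase gene Plcg2 rose, by 0.55 ± 0.10 (adjusted p = 0.00105) and 0.58 ± 0.10 (adjusted p = 0.00081). Of the subunits of phosphoinositide 3-kinase, Pik3cd rose by 0.22 ± 0.06 in converted (adjusted p = 0.0126; 0.0879 on library totals without scaling) and 0.28 ± 0.06 in resident libraries (adjusted p = 0.00351), and Pik3r1 rose by 0.38 ± 0.10 in resident libraries (adjusted p = 0.00796, against 0.058 in converted). Cblb, a ubiquitin ligase that dampens these receptors, fell with log2 fold changes of -1.31 ± 0.19 (adjusted p = 0.000296) in converted and -1.28 ± 0.19 (adjusted p = 0.000337) in resident libraries.

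Ptpn6, the phosphatase SHP-1 that inhibitory lectins recruit, rose slightly in converted (log2 fold change 0.32 ± 0.07, adjusted p = 0.00262) and resident libraries (0.22 ± 0.07, adjusted p = 0.0201) while Clec4a2 and Clec12a fell. The second rise was not called on library totals without scaling (adjusted p = 0.0666) or without resident library 1, 2 or 3 (0.0583, 0.0522 and 0.055). Of the transcription factor genes at the end of Dectin-1 signalling, Egr2 fell from 177 CPM to 2.71 in the converted and 5.96 in the resident group (log2 fold change -6.04 ± 0.40, adjusted p = 2.43e-06, and -4.89 ± 0.37, adjusted p = 5.88e-06), and without converted library 3 the first was -6.84. Nfatc2 fell with -2.03 ± 0.22 (adjusted p = 4.62e-05) and -1.24 ± 0.21 (adjusted p = 0.000876). Nfatc1 had 42.5 CPM in monocyte-derived and 61.9 in resident libraries, a rise of 0.54 ± 0.12 (adjusted p = 0.00313). Egr1, an immediate early gene, was lowest in converted and highest in resident libraries, at 47.5, 11.9 and 142 CPM. Converted against resident, Egr1 (-3.57 ± 0.28, adjusted p = 0.000612) and Vav3 (0.36 ± 0.08, adjusted p = 0.0324) were the 2 signalling genes called, and the call of Vav3 was lost without any single converted or resident library (adjusted p from 0.0541 to 0.154). Each of those fits also called fewer of all genes tested.

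**Figure D5:**
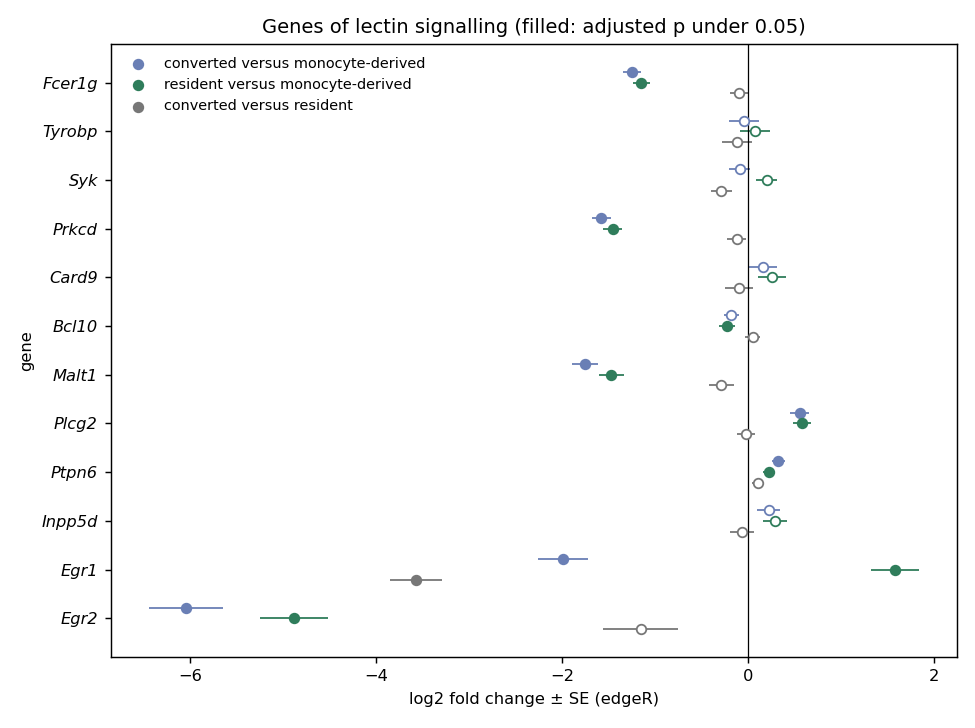
Log2 fold change (points, with SE as bars, from edgeR) of 12 genes of lectin signalling in the 3 comparisons, filled where the adjusted p was under 0.05. Fcer1g, Prkcd, Malt1 and Egr2 fell in both tissue populations, the points of Tyrobp, Syk and Card9 are open, and Egr1 lies on opposite sides of 0 in converted and resident libraries.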

How the data were processed

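The authors' deposited files hold raw read counts per gene, 1 file for each of 9 libraries made with the TotalScript low-input kit, per the labels' protocols. Per the submitters' processing notes, reads were handled with TopHat2 2.1.0 and HTSeq (no release named) on GRCm38. The annotation, the strandedness of counting and the treatment of multiply aligned reads were not given in the sources used here. Of 47729 identifiers, 47310 were matched to GENCODE M21. Summary lines that name no gene were left out (reads in no gene 4.02% to 5.66%, ambiguous reads 4.47% to 4.68%, the other 3 lines at 0). The filter was filterByExpr with a minimum count of 10 and a minimum total of 15, and scaling was by TMM. The test was the robust quasi-likelihood F-test of edgeR 4.0.16 in R 4.3.3 (with limma 3.58.1), in 1 fit of the 9 libraries that left 6 residual degrees of freedom. Benjamini-Hochberg adjustment ran over 13223 genes, and an adjusted p under 0.05 was called. Standard errors are the absolute log2 fold change over the root of F, and 95% intervals use the t distribution of that test. CPM uses TMM-scaled library sizes, and levels per length divide it by the union of exons. The steps were tested on simulated data. Counts of called genes and the fold changes of the 10 genes and of the list genes named were recomputed with DESeq2 1.42.0 and limma-voom, with other filters and scalings, on protein-coding genes, with a block for the replicate number, in 2-group fits, and with every library omitted in turn. Levels per length, genes most like Mrc1 and motif counts were not recomputed.

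The 10 genes, the lists and the alternatives were chosen with earlier results of these data known. Named were all 10 genes, and from the lists of other lectins and signalling genes, per comparison, the 4 largest called changes in each direction with no overlap between libraries and a mean of 5 CPM or more in the higher group, plus Mgl2, Clec4a1, Clec4a3, Clec4b1, Clec5a, Fcer1g, Tyrobp, Syk, Card9 and Ptpn6. Cd209c was named after its values were seen, and so were the Klr genes. Clec1b, Clec12b, Clec9a, Clec1a and Clec4b2 are named as neighbours of the 10 genes. No library was a duplicate: within a group, chi-square per degree of freedom was 5.91 or more for every pair. Whether replicate libraries stem from different mice is not stated in the labels, and p-values then measure only the spread between these samples, which may be technical.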

Additional observations from a re-analysis of the deposited data

How the results depend on the processing

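Of 564 values of the 10 lectin genes under the alternatives, 546 kept their direction and their side of the threshold, 8 lost the call (Cd209b), 6 gained one (Cd209a, Clec7a and Mrc1) and 4 changed sign without being called. For the other genes, 1765 of 1875 values were kept, 67 lost and 21 gained a call, and 22 changed sign without being called. No called value changed sign. On leaving out libraries, the log2 difference of converted from resident libraries ran from -0.12 to 0.0865 for Clec10a, -0.30 to 0.13 for Clec4a2, -0.0048 to 0.12 for Selp, -0.39 to 0.15 for Colec12, -0.38 to 0.17 for Clec4b1, -0.24 to 0.82 for Olr1, -0.0531 to 0.0234 for Plcg2, -0.29 to 0.11 for Cblb, -0.13 to 0.0123 for Clec4a3 and -0.22 to 0.0029 for Tyrobp. Against monocyte-derived libraries it ran from -0.92 to 0.91 for Cd209e (limma-voom -0.54), -0.21 to 0.12 for Tyrobp and -0.21 to 0.0171 for Syk in converted, and -0.0892 to 0.25 for Tyrobp in resident libraries. Clec7a gave no value in the fit of protein-coding genes alone, nor did Cd209b in the 2-group fit of converted with monocyte-derived libraries or Clec4n, Clec12a and Asgr2 in that of converted with resident libraries, since they were not among the genes tested there.

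Against the monocyte-derived group, each count of called lectins, other lectins and signalling genes stayed within 1.5 times its value. Leaving out 1 library at a time gave 8 to 10 (converted) and 10 to 10 (resident) called lectins. The converted to resident counts moved more. The 1 lectin called became 0 without a filter on low counts, 3 with DESeq2, 2 with limma-voom and 0 to 1 on leaving out libraries; other lectins went from 8 to between 3 and 12 on leaving out libraries. Signalling genes went from 2 to 1 on library totals without scaling, 1 with upper quartile scaling, 6 with DESeq2, 8 in the 2-group fit and 1 to 6 on leaving out libraries. The cause was not tested. Over all genes, 803 were called between converted and resident libraries (29.9% of them higher), 1364 by DESeq2, 2067 in the 2-group fit, 669 on library totals (18.8% higher) and 739 with upper quartile scaling (18.0% higher). The number was 869 with limma-voom, 852 without a filter on low counts and 245 to 1628 on leaving out libraries.

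The labels do not say whether equal replicate numbers share a batch. Same-numbered libraries of different groups deviated with correlations of -0.09 to 0.07, and differently numbered ones with -0.09 to 0.11. Such correlations over 3 libraries per group cannot exclude a shared day or batch. With the replicate number as a block, 2 lectins (Cd209b and Clec7a) and 1 signalling gene were called between converted and resident libraries, Cd209e was not (adjusted p = 0.0551), and 530 genes in all (21.7% higher). Genes with few reads, such as Cd209b and Clec12a, are limited by depth, and fold changes against 3 reads depend on the fit.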
